A study of Mus musculus with 19 samples.

Results

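Chr14 was followed in 10 mouse liver tumors and 9 unaffected livers by array comparative genomic hybridization (aCGH), in which DNA of a sample competes with control DNA for the probes of an array. The members were all array probes placed on Chr14 of the mm9 (NCBI37) assembly outside the T-cell receptor alpha interval (chr14:52900000-54900000) and the Rb1 interval (chr14:73100000-74250000). This left 10388 of 234018 probes, spread from 3.043 to 125.164 Mb with a median spacing of 7698 bases, while 206 probes in the former interval and 104 in the latter were set aside. Of these members, 10369 fell into 24 bins of 5 Mb with 174 to 652 probes each, and 19 lay in bins with too few probes. The rule used only the position of a probe and no measured value.

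The tumors were 4 hepatocellular adenomas (HCA) and 6 hepatocellular carcinomas (HCC), and each of the 9 mice also gave 1 unaffected liver. The HCA mice were females whose strain label lists Mad2flox, p53flox and AlbuminCre. HCA 2430 (16.9 months) and HCA 6199 (12 months) were Mad2(f/f) p53(f/f), and HCA 5884 (14.2 months) and HCA 5901 (12 months) were Mad2(f/f) p53(f/+). The HCC mice had a strain label that lists Mad2flox, p53ser249 and AlbuminCre, and the genotype label Mad2(f/f) p53ser246+. Female mouse 6240 (16.2 months) gave 2 HCCs, named 6240-4 and 6240-2, female mouse 6602 (13.2 months) gave 1, and males 6487 (12.8 months), 6565 (14.7 months) and 6642 (12.3 months) gave 1 each. Cre driven by the Albumin promoter acts in hepatocytes, so the unaffected livers share the floxed Mad2 alleles and the Cre of the tumors and are not wild type. The control DNA on every array came from the liver of a mouse of the opposite sex whose strain label names none of these alleles. HCA and HCC mice had no p53 genotype in common, so tumor type and p53 genotype cannot be told apart. DNA of a tumor mixes all cells of the sample, so fewer cells with a change and a smaller change per cell cannot be told apart either.

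Mad2 (gene symbol Mad2l1) is a protein of the spindle assembly checkpoint, which holds a dividing cell until its chromosomes are attached to the spindle. Cells without it can pass on too many or too few whole chromosomes, and p53 normally limits the growth of such cells. A whole-chromosome change moves every probe of the chromosome in the same direction, whereas a break within a chromosome leaves a step between neighbouring bins. Mouse Chr14 carries the Rb1 tumor suppressor and a series of genes of growth control and of liver metabolism.

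Values are log2 ratios of sample over control DNA, centred so that the median autosomal probe of each array is 0. In this unit, 3 copies in place of 2 in every cell would give 0.58. As a scale, X differed in dose between every liver and its opposite-sex control, and its ratio had a size of 0.885 to 1.04 in the livers. Zero stands for the middle of the autosomes of that sample and not for a known number of copies.

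Gene names place the chromosome in a biological context. In the RefSeq annotation of GRCm38.p6, all 42 genes of 3 lists were found on Chr14, and only their order relative to Tcra and Rb1 was used, because the probes are placed on another assembly. The list of growth control and tumor suppression had 5 of its 13 genes proximal to Tcra, among them Bap1, a deubiquitinase, and Pbrm1, a chromatin remodelling subunit. It had 7 genes between Tcra and Rb1, among them Lats2, a kinase of the Hippo pathway, and 1 distal to Rb1, the endothelin receptor Ednrb. Of 12 signalling and transcription genes, 7 were proximal (Mapk8, the JNK1 kinase, and Wnt5a, a secreted ligand), 3 were in the middle (Gata4, Fgf9 and Loxl2) and 2 were distal (Klf5 and Gpc6). Of 17 hepatocyte genes, 8 were proximal (Glud1, glutamate dehydrogenase, and the inter-alpha-trypsin inhibitor chains Itih1, Itih3 and Itih4), 7 were in the middle (Fdft1, squalene synthase, and Pck2, mitochondrial PEPCK) and 2 were distal (Pcca, a propionyl-CoA carboxylase subunit, and Dnajc3). No gene has a value of its own here, because the files pair no probe with a gene. Only the segment in which a gene lies is known.

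Chr14 also holds 2 microRNA clusters on either side of Rb1, with short mature RNAs that pair with messages through a seed of bases 2 to 8. Their mature sequences are shown because the segments that carry them differed in HCA 2430 and in HCCs 6240-4 and 6642, as described below. They are written 5′ to 3′ from RefSeq (GRCm38.p6), with the seed in capitals. Mir15a and Mir16-1, between Tcra and Rb1, share 1 seed:
mmu-miR-15a-5p: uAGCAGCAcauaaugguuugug
mmu-miR-16-5p: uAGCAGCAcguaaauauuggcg
The miR-17-92 cluster, distal to Rb1, has 4 seeds among 6 mature RNAs, 2 of which are shared by a pair each:
mmu-miR-17-5p: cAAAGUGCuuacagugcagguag
mmu-miR-20a-5p: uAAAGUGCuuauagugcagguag
mmu-miR-18a-5p: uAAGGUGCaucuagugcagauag
mmu-miR-19a-3p: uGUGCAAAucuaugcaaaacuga
mmu-miR-19b-3p: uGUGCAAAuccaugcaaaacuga
mmu-miR-92a-3p: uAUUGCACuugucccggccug
Only DNA was measured, so nothing is known here of the amount of these RNAs.

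Chr14 lay outside the range of the livers in 9 of 10 tumors, above it in 7 and below it in 2. For comparison, 63.7% of the 190 pairs of a tumor and an autosome lay outside the range of the livers, 29.5% above and 34.2% below. The 9 livers lay between −0.057 and 0.022 with a median of −0.016. The HCAs had 0.11 (2430), −0.18 (5884), 0.21 (5901) and 0.14 (6199), so that 3 lay above every liver and HCA 5884 lay below every liver. The HCCs ranged from −0.085 (6602) to 0.19 (6240-4) with a median of 0.14. HCCs 6240-4, 6487, 6565 and 6642 lay above every liver, 6602 below every liver, and 6240-2, at −0.055, within the range of the livers but near its lower end. Neither direction passed 0.3, the cut-off for whole-chromosome events in the study's methods, in any tumor. The name gain thus fits 7 of the 10 tumors, and only relative to the livers.

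**Figure D1:**
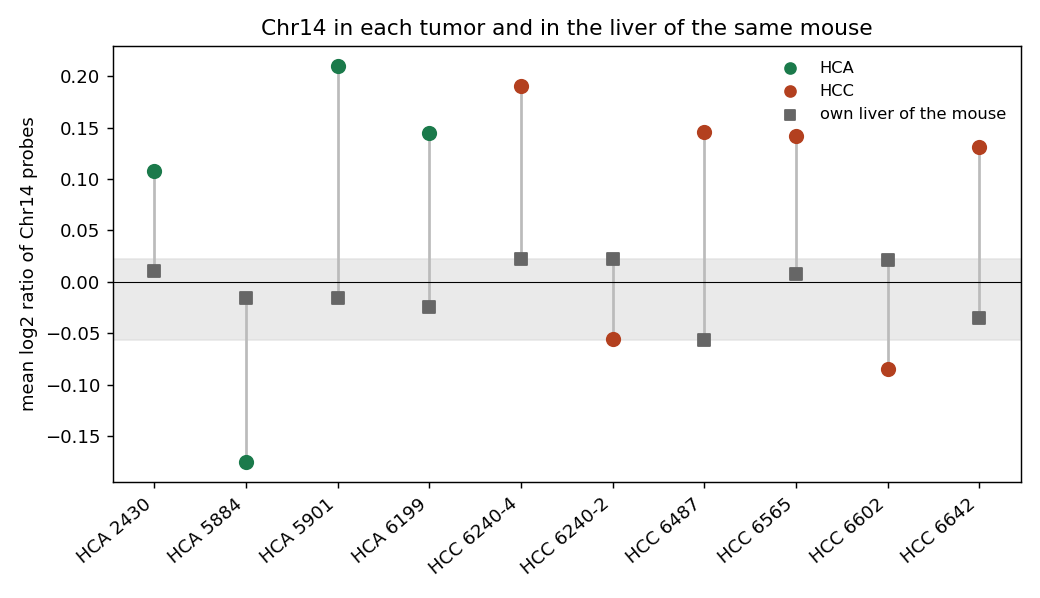
Mean log2 ratio of the Chr14 probes (vertical axis) in each of 4 HCAs and 6 HCCs (circles) and in the unaffected liver of the same mouse (squares), with the range of the 9 livers as a grey band. Circles for 7 tumors sit above the band, those for HCA 5884 and HCC 6602 below it, and that for HCC 6240-2 within it.

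The own liver of the mouse removes differences that the animal inherited. Minus the own liver, the HCAs had 0.098 (2430), −0.16 (5884), 0.23 (5901) and 0.17 (6199). The HCCs ranged from −0.11 (6602) to 0.20 (6487) with a median of 0.15, with 6240-2 at −0.077. In linear terms the ratio to the own liver ran from 0.895 in HCA 5884 to 1.17 in HCA 5901. Chr14 was thus above the own liver in 7 of 10 tumors and below it in 3. All 3 of the lower tumors came from females, but most tumors did: females gave all 4 HCAs and 3 HCCs, and males 3 HCCs. The 3 HCCs of males had Chr14 ratios of 0.13 to 0.15, and the 3 HCCs of females −0.085 to 0.19, while the livers of females had −0.024 to 0.022 and those of males −0.057 to 0.0073.

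The directions held under most of 13 processing settings. These 13 include the main setting and the deposited table, which holds the same ratios and so had to give the same result. HCAs 5901 and 6199 and HCCs 6240-4 and 6565 lay above every liver under all 13. HCA 2430 and HCCs 6487 and 6642 did so under 12, the exception being the normexp background correction, where HCC 6642 lay below its own liver (−0.013). HCA 5884 and HCC 6602 lay below every liver under 12 settings, again with normexp as the exception, and below their own livers under all 13. HCC 6240-2 was below its own liver under all 13 and below every liver under 7.

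Both HCCs of mouse 6240 were compared with the same liver and lay on opposite sides of it. Chr14 of 6240-4 exceeded that of 6240-2 by 0.25, and the difference was positive in all 24 bins, from 0.20 to 0.30. In size it ranked as the 5th of the 19 autosomes in this pair. There was 1 such pair of tumors, so no test was possible. X of HCC 6240-2 had a ratio of only 0.322 where its own liver had 1.04, and the part of this in the Chr14 value was not tested.

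As groups, HCA and HCC each had a higher mean than liver, and neither difference passed the test after adjustment. HCA averaged 0.072 ± 0.17 (SD, n = 4) against −0.0096 ± 0.027 (SD, n = 9) in liver, a difference of 0.081 (exact two-sided permutation test, p = 0.187, adjusted over 19 autosomes p = 0.223). In this comparison 78.9% of the autosomes passed. Without HCA 5884 the difference from liver was 0.16 with an adjusted p of 0.00864 by the same test. HCA 5884 was the only HCA below the livers, so leaving it out does not stand as support. With normexp the difference from liver was 0.099 with an adjusted p of 0.0452. Without HCA 5901 it was 0.035 (exact permutation test, adjusted p = 0.574) and without background subtraction 0.052 (adjusted p = 0.133 by the same test).

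HCC averaged 0.078 ± 0.12 (SD, n = 6), which was 0.088 above liver (exact two-sided permutation test, p = 0.0484, adjusted p = 0.0919). Here 31.6% of the autosomes passed. The adjusted p was 0.0142 without HCC 6240-2, 0.0228 without HCC 6602 and 0.0399 with the HCCs of mouse 6240 averaged. HCCs 6240-2 and 6602 had the lowest Chr14 ratios of the HCCs, so leaving them out does not stand as support. By the same permutation test, the adjusted p was 0.192 without HCC 6240-4 and 0.142 without HCC 6487. It was 0.165 without HCC 6565 and 0.187 without HCC 6642. With all 6 HCCs, an exact Mann-Whitney test gave an adjusted p of 0.431 and limma gave 0.183. HCC lay 0.052 above liver with normexp (adjusted p = 0.390 by the exact permutation test). In females alone, 3 HCCs exceeded the livers by 0.017 (adjusted p = 0.880 by the exact permutation test).

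HCC and HCA differed by 0.0062, far less than the spread within either group (exact two-sided permutation test, p = 0.924, adjusted p = 0.967; 10.5% of the autosomes passed). The sign of this difference turned to −0.047 with normexp, to −0.076 without HCA 5884 and to −0.055 in females alone. With 1 value per mouse and the own liver subtracted, the HCC and HCA means differed by 0.0052 (exact permutation test, p = 0.968).

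Tested by exact sign flips over mice, the difference from the own liver was 0.083 ± 0.17 (SD) in 4 HCA mice (p = 0.375, where 0.125 is the smallest p these mice allow). In 5 HCC mice it was 0.088 ± 0.12 (SD; exact sign flips, p = 0.188, smallest possible 0.0625). Over all 9 mice, 7 of which lay above their livers, it was 0.086 ± 0.14 (SD; exact sign flips, p = 0.0938). This pooling of HCA and HCC was added after the data had been seen. With mice left out in turn, exact sign flips gave p from 0.0312 to 0.180. The lowest p, 0.0312 and 0.0469 by the same test, came without mouse 5884 and without mouse 6602. Tumors of both these mice lay below their livers, so these values do not stand as support.

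Regardless of direction, the absolute Chr14 ratio averaged 0.139 in the 10 tumors and 0.0232 in the 9 livers. The groups overlapped in size, since HCC 6240-2 had −0.055 and liver 6487 had −0.057. This measure was chosen after tumors had been seen on both sides of the livers, so it is given as a description with no test.

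The arrays had been scanned on 3 days. On the first day HCA had −0.18 and 0.11, and 3 livers −0.016 to 0.011. On the second day 2 HCAs had 0.14 and 0.21, the only HCC had 0.15, and 2 livers had −0.057 and −0.024. On the third day 5 HCCs ran from −0.085 to 0.19 and 4 livers from −0.035 to 0.022. Each day that held HCC or HCA thus had at least 1 tumor above its livers. HCA 5901 was scanned on the second day and its own liver on the first, the only pair split over days. In its difference from the own liver (0.23), tumor and scan day cannot be told apart. With scan day as a term in limma, HCA lay 0.077 above liver (limma adjusted p = 0.274). For HCC this fit gave 0.075 (limma adjusted p = 0.323).

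Among the autosomes, Chr14 was one of 9 on which some tumors lay above every liver and others below. It was one of 6 on which at least 2 tumors lay on each side. Its standard deviation was 0.131 over the 10 tumors and 0.027 over the 9 livers, and the spread over tumors ranked 8th of 19. Chr14 ranked 1st of the 19 autosomes above the own liver in HCC 6487, 2nd in HCAs 5901 and 6199 and in HCC 6565, and 3rd in HCC 6240-4. It ranked 4th in HCC 6642, 8th in HCA 2430, 13th in HCC 6602, 14th in HCC 6240-2 and 17th in HCA 5884.

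**Figure D2:**
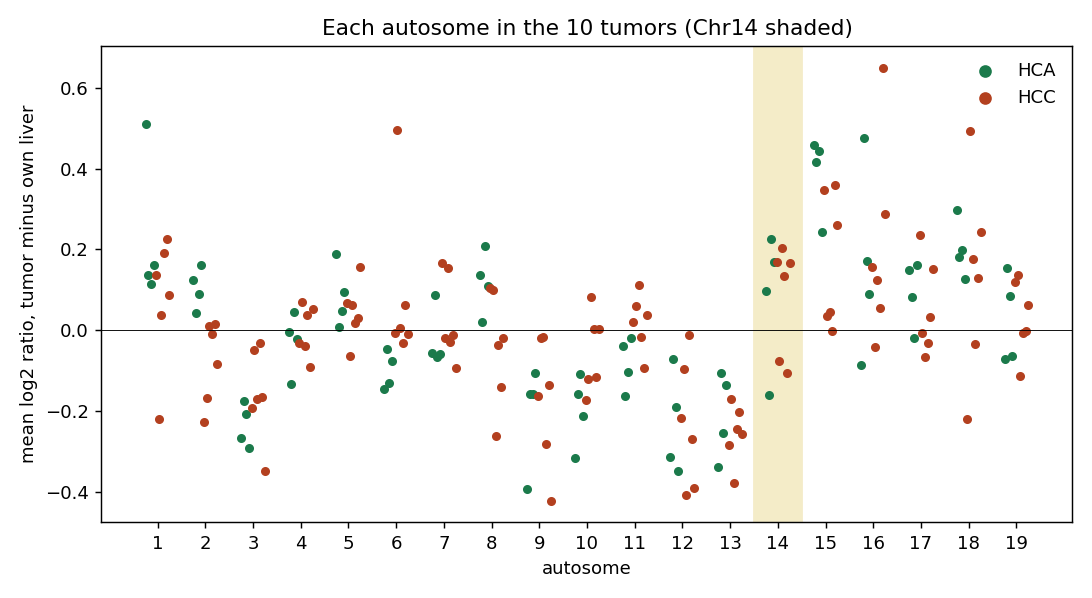
Mean log2 ratio of each autosome minus that of the own liver (vertical axis) for 4 HCAs and 6 HCCs (1 point per tumor), with Chr14 shaded. On Chr14, 7 points lie above 0 and 3 below, and no point reaches 0.3.

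Chr15, on which 8 of 10 tumors lay above every liver, was set beside Chr14 for scale. Over the 9 mice the difference from the own liver averaged 0.268 on Chr15 and 0.086 on Chr14. Chr15 was the higher in 7 of 9 mice (difference 0.18 ± 0.25 (SD)). Chr15 was set beside Chr14 with its high values in these same tumors known, so this is a description with no test. Of the 3 tumors with Chr14 below the own liver, HCA 5884 had 0.416 on Chr15, HCC 6602 had 0.358 and HCC 6240-2 had 0.034. HCC 6565 had −0.0023 on Chr15 and 0.13 on Chr14.

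Along the chromosome, the 24 bins of each tumor lay on the same side of its own liver. They were all above it in the 7 tumors that lay above it, and all below it in the other 3. The share of all autosomal bins was not taken for this count. Bins on the same side do not make an even shift, since HCA 2430 came down to 0.018 and HCC 6240-2 came up to −0.0081. In HCA 5901 and HCCs 6240-4, 6565 and 6642, all 24 bins lay above every liver, against 30.3%, 36.3%, 14.3% and 35.5% of the 502 autosomal bins of these tumors. HCC 6487 had 23 such bins (25.3% of all), HCA 6199 had 22 (33.5%) and HCA 2430 had 20 (39.4%). In HCA 5884 all 24 bins lay below every liver (41.8% of all), in HCC 6602 21 did (36.9%) and in HCC 6240-2 10 did (24.5%).

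**Figure D3:**
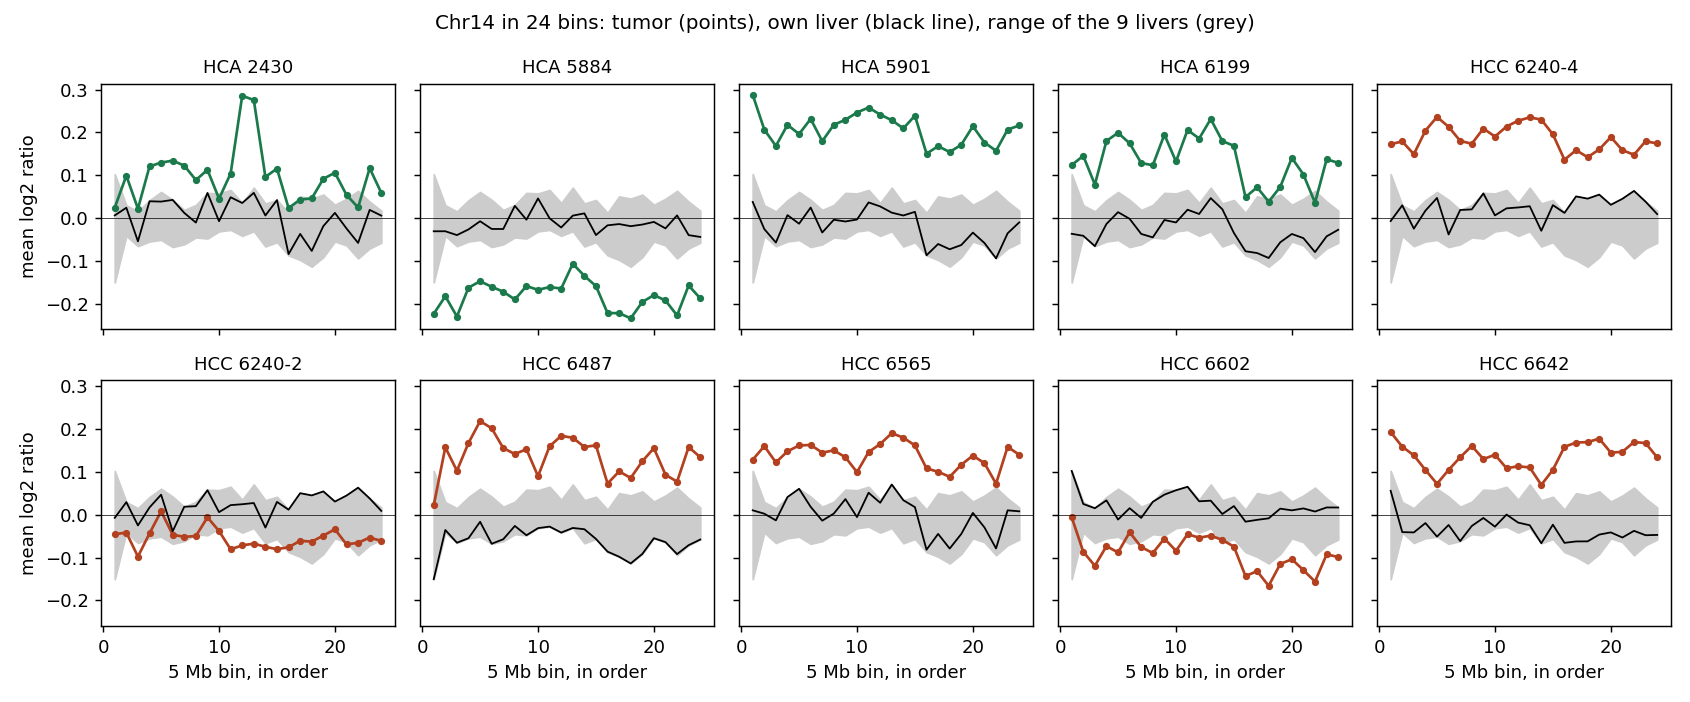
Mean log2 ratio (vertical axis) in 24 bins of 5 Mb along Chr14 (horizontal axis, in order) for each tumor (points), its own liver (black line) and the range of the 9 livers (grey). HCA 2430 rises to 0.29 and 0.28 in bins 12 and 13, and the bins of HCA 6199 run from 0.036 to 0.23 and those of HCC 6487 from 0.022 to 0.22.

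Tested bin by bin, Chr14 did not pass in either tumor type. In HCA against liver, 0 of 24 Chr14 bins passed limma's adjusted p of 0.05, where 46% of the 502 autosomal bins did, and 1 of 24 had an unadjusted p under 0.05. Leaving out HCA 5884 brought the count to 22 of 24, all higher in HCA, and that over all bins to 56.4%. This count does not stand as support, because HCA 5884 was the only HCA with Chr14 below the livers. In HCC against liver, again 0 of 24 passed (24.7% of the 502 bins did), and 1 had an unadjusted p under 0.05. Without HCC 6240-2, 3 passed (37.1% of all bins), and without HCC 6602 again 3 (21.9% of all bins). These HCCs had the lowest Chr14 ratios, so the counts without them do not stand as support either. All 24 bin differences were positive in both comparisons. In HCA they ran from 0.038 at chr14:110000001-115000000 (SE 0.061, limma adjusted p = 0.587) to 0.13 at chr14:65000001-70000000 (SE 0.061, limma adjusted p = 0.0733). In HCC the lowest was 0.060 at chr14:55000001-60000000 (SE 0.053) and the highest 0.11 at chr14:30000001-35000000 (SE 0.052).

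In the first bin, chr14:5000001-10000000, the HCAs had 0.024 (2430), −0.22 (5884), 0.29 (5901) and 0.12 (6199), and the HCCs ran from −0.045 to 0.19. The livers ran from −0.15 to 0.10 there, and HCA 2430, HCC 6487 (0.022), HCC 6602 (−0.0058) and HCC 6240-2 (−0.045) lay within this range. In the last bin, chr14:120000001-125000000, the HCAs had 0.059, −0.19, 0.22 and 0.13 in the same order, and the livers −0.058 to 0.017. Minus its own liver, HCA 2430 had 0.018 in the first bin and 0.053 in the last, against 0.25 and 0.22 in bins 12 and 13.

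Against its own liver, each tumor had a lowest and a highest bin. HCA 5884 ran from −0.23 in the bin starting at 110 Mb to −0.11 at 65 Mb, HCA 5901 from 0.20 at 70 Mb to 0.25 at 110 Mb, and HCA 6199 from 0.12 at 110 Mb to 0.20 at 75 Mb. HCA 2430 had the widest run of the HCAs, from 0.018 at 5 Mb to 0.25 at 60 Mb. HCC 6240-4 ran from 0.085 at 110 Mb to 0.26 at 70 Mb and HCC 6240-2 from −0.13 at 110 Mb to −0.0081 at 30 Mb, so these tumors of 1 mouse did not overlap in any bin. HCC 6487 ran from 0.12 at 50 Mb to 0.27 at 30 Mb, HCC 6565 from 0.095 at 55 Mb to 0.19 at 80 Mb, HCC 6602 from −0.16 at 110 Mb to −0.056 at 30 Mb and HCC 6642 from 0.11 at 55 Mb to 0.23 at 90 Mb. The lowest bin started at 110 Mb in 5 of the 10 tumors, 3 of them those with Chr14 below their livers. In that bin the own livers of these 3, 6240 (0.063), 6602 (0.0076) and 5884 (0.0060), were the highest livers. Before subtraction, HCA 5884 and HCC 6602 were lowest at 90 Mb, HCC 6240-2 at 15 Mb and HCC 6240-4 at 80 Mb. Only HCA 6199 was still lowest at 110 Mb (0.036).

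Unevenness, taken as the SD of the 24 bins within a sample, had a higher mean in HCA than in liver, a difference that did not pass after adjustment. It averaged 0.048 ± 0.017 (SD, n = 4) in HCA and 0.033 ± 0.0074 (SD, n = 9) in liver (exact two-sided permutation test, p = 0.0336, adjusted p = 0.0897). Of the autosomes in this comparison, 0% passed after adjustment, and 42.1% had an unadjusted p under 0.05. The HCAs had 0.068 (2430), 0.033 (5884), 0.036 (5901) and 0.055 (6199). HCA 2430 and HCA 6199 thus lay above every liver, and HCA 5884 and HCA 5901 within the range of the livers, 0.022 to 0.043. This measure includes the course along the chromosome that a tumor shares with the livers, which HCA 6199 followed closely (r = 0.93). Minus the own liver, the SD over bins was 0.049 (2430), 0.035 (5884), 0.014 (5901) and 0.024 (6199). Without HCA 2430 the difference from liver was 0.0086. It was 0.00038 with normexp (adjusted p = 0.985 by the exact permutation test) and 0.0067 without background subtraction (adjusted p = 0.312 by the same test). HCC averaged 0.034 ± 0.0081 (SD, n = 6) and differed from liver by 0.00080, less than the spread of either (exact permutation test, p = 0.845, adjusted p = 0.917; 0% of the autosomes passed, 5.26% unadjusted).

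HCA 2430 carried a step within the chromosome. A search for the contiguous block of 1 Mb windows that best divided each profile found 10 windows, chr14:60000001-70000000, between both set-aside intervals. Their 1132 probes averaged 0.23 above the own liver, against 0.081 for the rest of Chr14, a difference of 0.15. All 10 windows exceeded the median of the windows outside, and 7 exceeded the highest of them. The search picks the block of greatest contrast in this same profile, so these counts describe the block and do not test it. In windows of 0.25 Mb, the proximal edge lay between −0.019 at 59.5-59.75 Mb (10 probes) and 0.21 at 59.75-60 Mb (25 probes). The distal edge lay between 0.22 at 69.75-70 Mb (38 probes) and 0.028 at 70-70.25 Mb (42 probes). Outside the stretch, single windows were also raised, with 0.29 at 58.75-59 Mb (9 probes) and 0.15 at 70.75-71 Mb (52 probes), so the edges are approximate.

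The block explained 57.6% of the sum of squares of the windows in this tumor, and the best blocks of the other 9 tumors on Chr14 explained 10.4% to 35.6%. Over all 190 profiles of a tumor and an autosome, the median was 16.6%, and 9 profiles, this one included, reached at least 57.6%. At the same position the other 9 tumors differed from their own rest of Chr14 by −0.036 (HCC 6642) to 0.041 (HCC 6240-4), and the 9 livers by −0.026 to 0.034 from the mean of the other livers. The step in HCA 2430 was 0.14 to 0.19 when each of the 9 livers in turn was the comparison. It was 0.090 with normexp and 0.077 without background subtraction. In the last window of the stretch, chr14:69000001-70000000, the livers themselves differed, from −0.082 to 0.19, with liver 2430 at −0.026.

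**Figure D4:**
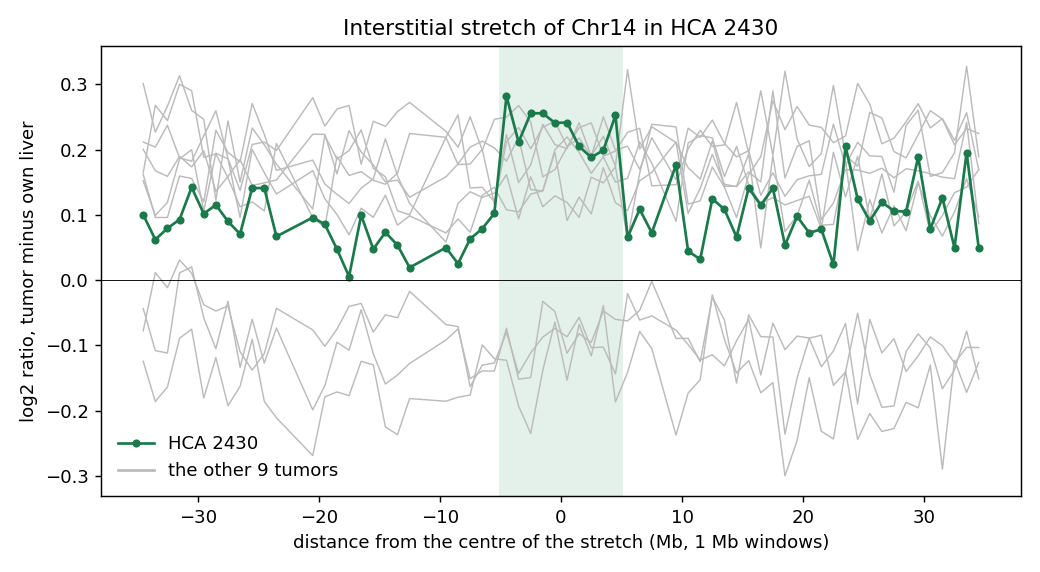
Log2 ratio of tumor minus own liver (vertical axis) in 1 Mb windows of Chr14, by distance from the centre of the 10 Mb stretch of HCA 2430 (shaded), for HCA 2430 (points) and the other 9 tumors (grey lines). HCA 2430 rises from about 0.1 outside to 0.19 to 0.28 inside, while the means of the other 9 tumors inside and outside differ by −0.036 to 0.041.

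Between the set-aside intervals, HCA 2430 stood 0.15 above its own liver, against 0.078 proximal to them and 0.088 distal. The middle segment includes 259 of the protein-coding genes of Chr14 in RefSeq, the growth control genes Lats2, Trim13 and Bnip3l among them, and Mir15a with Mir16-1, whereas the miR-17-92 cluster lies in the distal segment. Which of these genes lie within the stretch cannot be read from these files. In the other HCAs the segments were close to each other: HCA 5884 had −0.16, −0.14 and −0.17 from proximal to distal, HCA 5901 had 0.22, 0.22 and 0.23, and HCA 6199 had 0.18, 0.18 and 0.16. HCC 6240-4 was highest in the middle (0.18, 0.21 and 0.13) and HCC 6642 lowest there (0.15, 0.12 and 0.20). A difference between the middle and distal segments was thus not particular to HCA 2430.

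Odd and even probes gave the same group means, 0.071 and 0.073 in HCA and 0.080 and 0.076 in HCC. The software marked 98.3% to 99.98% of the Chr14 spots as well above background, depending on the array, and at most 1 as saturated. Neighbouring Chr14 probes scattered with an SD of 0.178 to 0.410 per array. Precision of the comparisons rests on how many arrays there were.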

How the data were processed

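DNA of 4 HCAs, 6 HCCs and 9 livers was hybridised in Cy5 against sex-mismatched control liver in Cy3 on 19 Agilent 244K arrays. The deposited log10 ratios of processed signals, and the deposited processed and median intensities, were made by the authors with Feature Extraction 10.5.1.1 with background subtraction and linear dye normalization. The table of all samples that the authors deposited holds the same log10 ratios (largest difference 5e-10).

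Outlier spots were left out, spots of a probe were averaged and log2 ratios were centred on the autosomal median. Chromosome means were compared by exact permutation of the difference in means with Benjamini-Hochberg adjustment over 19 autosomes, and 5 Mb bins with at least 20 probes by limma 3.58.1 in R 4.3.3 over 502 bins, at 0.05. P-values treat the 2 HCCs of mouse 6240 as separate samples. The chromosome and bin means, the permutation test and the limma fit were tested on simulated data, and the search for a contiguous block was not. Alternatives covered background correction (normexp with offset 50, or none), loess, centring, probe filters, bin width, tests, blocks and each sample left out. Bins to be described were the first, the last and those with the highest and lowest difference from liver; genes were named only by list.

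Tumors and livers pair by mouse, as the labels state. Their deviations over the autosomes correlated between −0.22 and 0.29, above 0.1 in 5 of 10 pairs. The members and lists were chosen with earlier results of these data known. Sequences of the array probes were not used here. A gene of the lists is counted but not reported by name here.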

Additional observations from a re-analysis of the deposited data

Results flagged for a closer look

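In the bin chr14:65000001-70000000, HCA 5884 had −0.11 while the other 3 HCAs lay between 0.23 and 0.28. Its gap to the nearest HCA was 0.877 of the range of the group. Of 26 sets of samples examined in this way, 1 stood out, and chance alone flags about 1 in 20. HCA 5884 was also the lowest HCA in the chromosome mean.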

How the results depend on the processing

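Of the whole-chromosome comparisons with liver, HCA passed the threshold with normexp (0.099), and HCC with the HCCs of mouse 6240 averaged (0.090). With samples left out in turn, HCA minus liver ran from 0.035 to 0.16, HCC minus liver from 0.065 to 0.12 and HCC minus HCA from −0.076 to 0.052. HCC minus HCA changed sign with normexp (−0.047), with ratios divided by X (−0.036), with scan day as a block (−0.0020) and in females (−0.055). Division by X took HCC 6240-2, whose X ratio was only 0.322, from −0.077 to −0.19 against its own liver. Unevenness in HCC minus liver changed sign with normexp (−0.00097), without background subtraction (−0.0018) and with probe medians (−0.0011), and ran from −0.0018 to 0.0029 with samples left out. HCA minus liver in unevenness ran from 0.0086 to 0.020 with samples left out and from 0.00038 to 0.023 under the other alternatives. Bins called ran from 0 to 22 in HCA and from 0 to 3 in HCC with samples left out, and were 0 under every other alternative run. Over all mice the difference from the own liver ran from 0.069 to 0.12 with mice left out. The cause of these changes was not tested. With the mouse as replicate block in limma, HCA lay 0.083 above liver (adjusted p = 0.322). HCC lay 0.086 above it in the same paired fit (adjusted p = 0.409), 0 bins were called in either, and no call changed.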

Other observations

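A few windows of Chr14 differed between the livers themselves. The SD over the 9 livers was 0.191 at chr14:8000001-9000000, 0.112 at chr14:26000001-27000000 and 0.108 at chr14:69000001-70000000, against a median of 0.0416 over 112 windows of 1 Mb. In the first of these, liver 6487 had −0.43 and liver 6602 had 0.23. HCC 6487 had −0.25 there, so this tumor was low in the same window as its own liver.

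The bins of most samples shared a wave. The correlation of a sample's 24 bins with the mean of the other livers was highest in HCA 6199 (r = 0.93). It was below 0 in HCC 6642 (r = −0.57) and liver 6240 (r = −0.25). This describes the bins of 1 chromosome, in each of which all samples share the same probes and so the same base composition.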
